A study of Mus musculus with 18 samples.

Results

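The genes described here were 36 that encode integrin chains, costamere linkers and laminins with other basement membrane proteins, chosen by name from the 49315 gene identifiers of the tables and kept if they had at least 10 counts in 3 or more libraries. All 36 passed that limit, and all 36 were among the 15778 genes tested. By role they were 10 integrin alpha chains, 5 integrin beta chains, 14 intracellular linkers and 7 basement membrane genes.

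Integrins are receptors of paired alpha and beta chains that span the cell membrane. Outside the cell they bind laminins, collagens and fibronectin, and inside it talin, vinculin and other linker proteins tie them to actin. In heart muscle these complexes sit at costameres, the membrane sites over the Z-discs where the contractile apparatus is fastened to the basement membrane, and they carry force outward and signal inward. The product of Csrp3, muscle LIM protein (MLP), is a striated muscle protein found at the Z-disc and costamere, and mice without it develop a dilated heart.

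The libraries were made from total RNA of the mid wall of the left ventricle of male mice on the 129SVE background. Wild-type (WT) and MLP knockout (KO) hearts were sampled at 3, 6 and 10 weeks of age, with 3 libraries in each of the 6 groups. No treatment was labelled, and the labels did not describe the knockout allele or say that the 3 libraries of a group came from separate animals, so p-values measure the spread between these libraries. The question was how expression in the ventricle differs with genotype as the dilated cardiomyopathy of this line progresses.

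Library totals ran from 14980968 to 23001047 counts. Csrp3 itself stood at 951 to 1486 CPM (counts scaled to a common library size) in the WT libraries and at 1134 to 3416 CPM in the libraries labelled KO, so it was not lower under the KO label. Counts per whole gene do not separate a deleted part from the rest of a transcript, so this value does not check the labels, and KO below means labelled KO. Transcripts of ventricular cardiomyocytes were abundant in every group, and 1 library of each KO group carried atrial transcripts: the 7 atrial markers summed to at most 299, 952 and 2700 CPM in the KO groups at 3, 6 and 10 weeks and to at most 88.7 CPM in WT. These 3 libraries, KO 3-week replicate 3, KO 6-week replicate 3 and KO 10-week replicate 1, are called atrial-rich. The part of other cell types in the results was not tested, and in bulk tissue fewer cells of a type and less RNA per cell cannot be told apart.

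Itga9, Itgb5, Tln1 and Zyx were called higher in KO at every age, and the KO difference of Itga5, Vcl and Lamb1 changed with age. For 3 of these 7 genes (Itga5, Itgb5 and Vcl) the sequence just before the RefSeq transcription start is shown. These 3 were the genes with at least 200 of the 250 window bases outside the deposited gene model. The windows were taken from RefSeq on GRCm38.p6, 5′ to 3′ on the gene's strand, and capitals mark matches on either strand to the motifs searched: the AP-1 motif TGANTCA, the TEAD motif CATTCC, the GC box GGGCGG and the CArG box.
Itga5, chr15:103366792-103367041, minus strand: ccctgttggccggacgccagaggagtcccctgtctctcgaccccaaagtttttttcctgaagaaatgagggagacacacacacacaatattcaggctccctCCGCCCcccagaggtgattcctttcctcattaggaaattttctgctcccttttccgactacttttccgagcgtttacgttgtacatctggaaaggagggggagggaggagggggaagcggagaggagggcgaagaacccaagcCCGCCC
Itgb5, chr16:33829415-33829664, plus strand: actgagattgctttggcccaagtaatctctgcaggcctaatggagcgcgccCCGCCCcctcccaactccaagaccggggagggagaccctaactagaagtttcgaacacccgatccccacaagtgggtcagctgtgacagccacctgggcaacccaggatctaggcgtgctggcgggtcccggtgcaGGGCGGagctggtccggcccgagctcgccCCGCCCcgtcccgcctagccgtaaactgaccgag
Vcl, chr14:20929148-20929397, plus strand: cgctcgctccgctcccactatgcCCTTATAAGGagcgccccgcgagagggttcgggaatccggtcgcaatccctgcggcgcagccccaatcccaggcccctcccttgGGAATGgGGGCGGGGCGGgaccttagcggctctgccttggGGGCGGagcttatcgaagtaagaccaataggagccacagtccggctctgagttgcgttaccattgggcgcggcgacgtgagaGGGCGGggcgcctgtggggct
The Itga5 window held 2 GC boxes and the Itgb5 window held 3. In the Vcl window stood 1 CArG box, the sequence bound by serum response factor, with 1 TEAD motif and 4 GC boxes, of which 1 pair overlapped. Of the 36 genes, 25 matched a RefSeq promoter by symbol. The CArG box was in 2 of these 25 (8%; Vcl and Fermt2) and in 1.47% of all 32851 promoters. A GC box was in 14 of 25 (56%, against 32.7% of all promoters), a TEAD motif in 4 (16%, against 12.6%) and an AP-1 motif in 1 (4%, against 6.75%). These matches describe letters and were not measured as binding.

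Levels were compared between genes as TPM, which divides the counts by the exon length of each gene and scales every library to the same total. Over the 9 WT libraries the highest was Itgb1, the common beta chain of the laminin and collagen receptors, at 249 ± 50.1 TPM (mean ± SD, n = 9). Itgb1bp2, which encodes the muscle protein melusin that binds the tail of that beta chain, stood at 209 ± 22.1 TPM, and Lamb2, a laminin beta chain, at 206 ± 44.3 TPM. The 3 ranges overlapped. Itga7, the main laminin-binding alpha chain of muscle, was the highest alpha chain at 146 ± 18.5 TPM. The next alpha chain, Itga5, which pairs with Itgb1 as a fibronectin receptor, was at 40.5 ± 6.40 TPM, and its highest WT library was below the lowest WT library of Itga7. Itga9, a receptor chain for tenascin-C and osteopontin, followed at 33.2 ± 8.07 TPM and overlapped with Itga5. At the foot of the order stood Itgb3 at 1.15 ± 0.224 TPM, Itga10 at 0.722 ± 0.178 TPM and Itgb8 at 0.170 ± 0.0707 TPM. Itgb8, a chain that binds latent TGF-beta, was thinly counted, and its values are the least precise of the 36. The KO libraries held Itgb1 at 324 to 461 TPM, again first in order. The TPM totals include mitochondrial genes, which made up 11.0% to 16.8% of counts in WT and 7.5% to 10.9% in KO. TPM and CPM are scaled in different ways, TPM without the library-size adjustment used for CPM, and they can differ in direction between genotypes. The part of the mitochondrial share in this was not tested. At 3 weeks Itgb1bp2 averaged 164 CPM in WT and 151 CPM in KO, but 218 and 225 TPM. Differences between genotypes are given below in CPM.

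**Figure D1:**
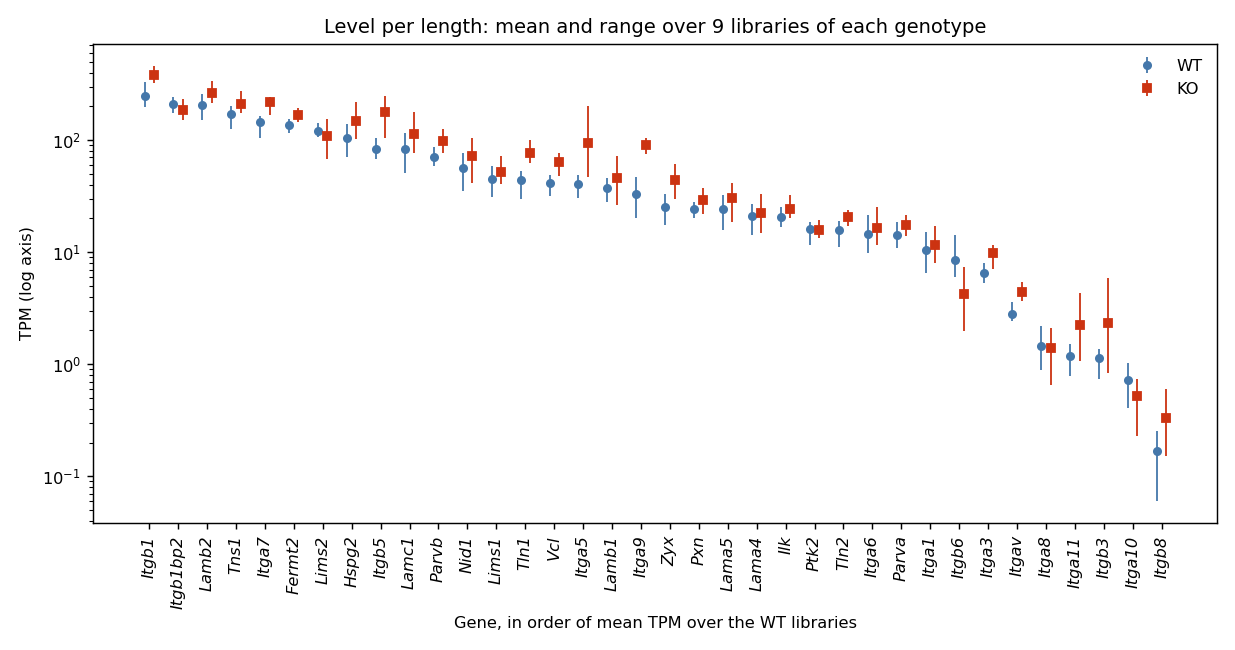
Level per exon length (TPM, log axis) of the 36 genes in order of their mean over the 9 WT libraries; circles are WT means, squares KO means and lines the range over 9 libraries of each genotype. Itgb1 was first and Itgb8 last, and the KO range of Itga9 (75.6 to 104 TPM) lay above its WT range. TPM is not adjusted for the share of mitochondrial counts, which differed between the genotypes.

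More of these genes were higher than lower in KO at each age. The 36 were chosen with earlier results of these data known, so their counts and median do not test for an excess over all genes. At 3 weeks 10 of 36 were called higher and 0 lower, at 6 weeks 10 higher and 2 lower, and at 10 weeks 13 higher and 3 lower. A call is an adjusted p under 0.05 from the quasi-likelihood test of edgeR, adjusted by Benjamini-Hochberg over all genes tested. Among all 15778 genes 8.65% were called higher and 6.68% lower at 3 weeks, 11.0% and 12.8% at 6 weeks, and 14.6% and 14.7% at 10 weeks. For the 0 lower at 3 weeks, 2 of the 36 were lower at an unadjusted p under 0.05, limma voom called 1 and DESeq2 called 0. The median log2 fold change of the 36 was 0.30 at 3 weeks, 0.16 at 6 weeks and 0.22 at 10 weeks. Over all genes tested it was 0.0015, 0.0042 and -0.031. Itga9, Itgb5, Tln1 and Zyx were called higher at all 3 ages. On GRCm38 the deposited gene models place Itga9 (ENSMUSG00000039115) at chr9:118606690-118901003, Itgb5 (ENSMUSG00000022817) at chr16:33829665-33949153, Tln1 (ENSMUSG00000028465) at chr4:43531519-43562691 and Zyx (ENSMUSG00000029860) at chr6:42349630-42360213. Lims2 was called lower at 6 and at 10 weeks, and 12 of the 36 were called at no age. Shares of all genes with such patterns over the ages are not given here, so these counts are not set against a background. The share of counts from mitochondrial genes separated the genotypes, at 11.0% to 16.8% in the 9 WT libraries and 7.5% to 10.9% in the 9 KO libraries. With mitochondrial genes removed, 11 members were higher at 3 weeks, 10 at 6 weeks and 13 at 10 weeks. The share of all genes called in that fit is not given here. The part of the mitochondrial difference in the calls was not tested. Of 10 endothelial markers, 0 were called higher at any age by edgeR (0 at an unadjusted p under 0.05), while 4 were called lower at 6 weeks and 3 at 10 weeks. Their summed level was 1390 to 1430 CPM in WT and 914 to 1120 CPM in KO at 6 weeks, and 1360 to 1710 CPM in WT and 1100 to 1260 CPM in KO at 10 weeks.

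**Figure D2:**
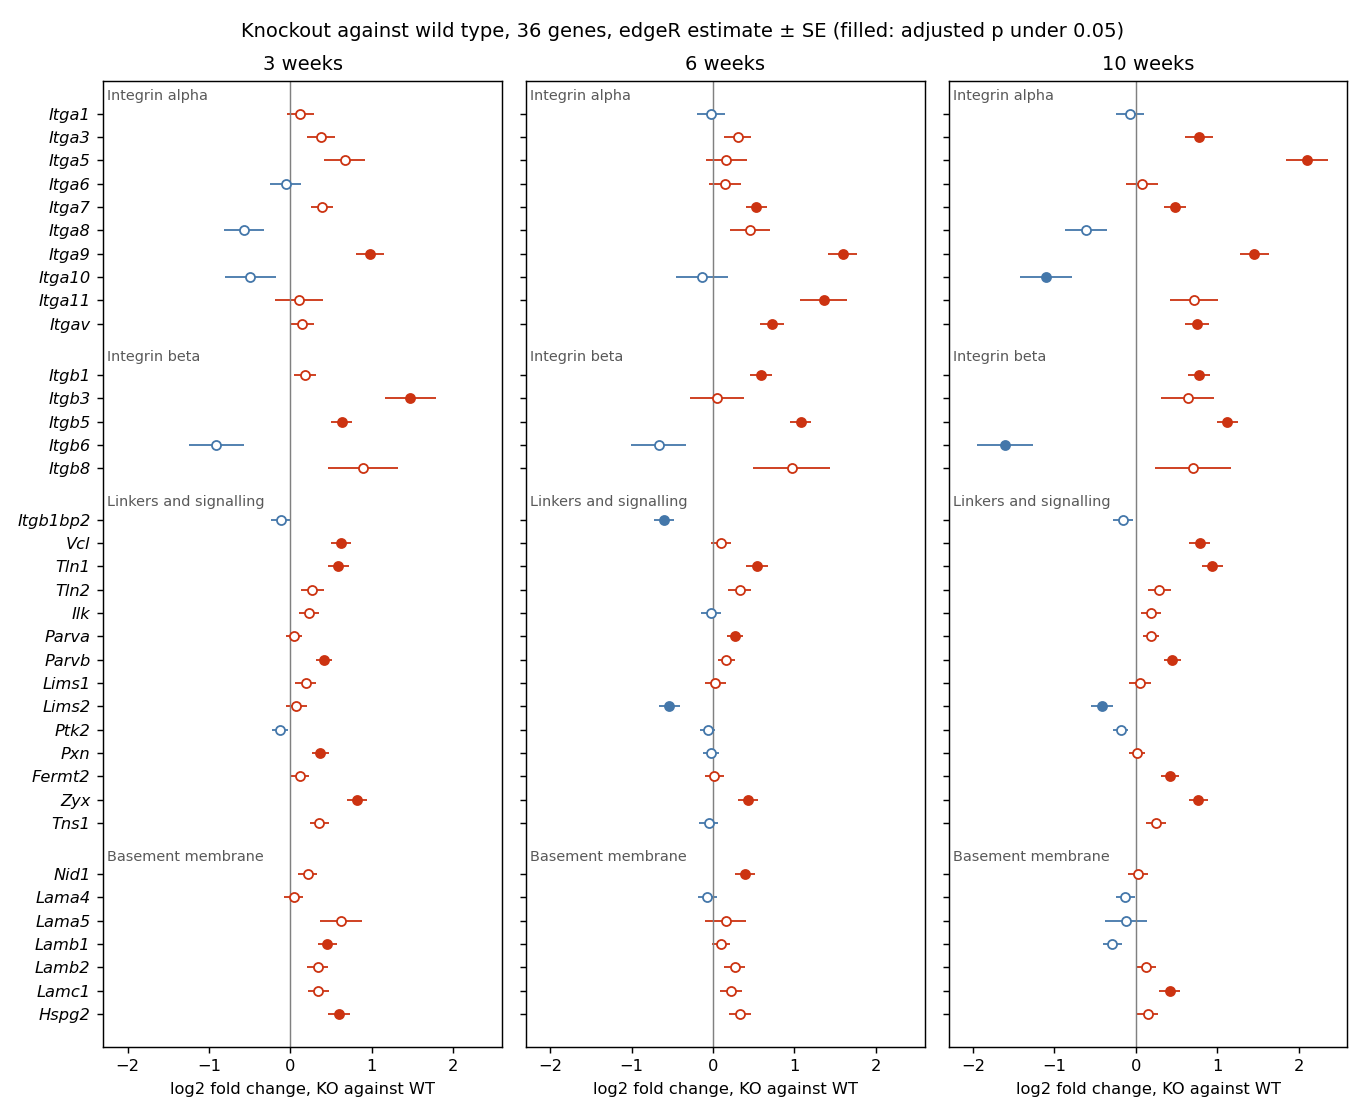
Log2 fold change of KO against WT (x axis; edgeR estimate, line ± SE) for each of the 36 genes at 3, 6 and 10 weeks, in blocks by role; filled symbols have an adjusted p under 0.05, red is higher and blue lower in KO. Itga9, Itgb5, Tln1 and Zyx are filled to the right of 0 in all 3 panels, and Itga5 reached 2.10 at 10 weeks.

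Among the 10 alpha chains, 1 was called higher at 3 weeks, 4 at 6 weeks, and 5 higher and 1 lower at 10 weeks. Over all genes tested, 8.65%, 11.0% and 14.6% were higher at 3, 6 and 10 weeks, and 6.68%, 12.8% and 14.7% lower. Itga9 was called higher at all 3 ages, with the largest log2 fold change of the 4 genes for which that held. At 3 weeks it stood at 95.4, 139 and 146 CPM in WT and 227, 249 and 274 CPM in KO. The groups did not overlap (log2 fold change 0.98, SE 0.18, adjusted p = 0.00079). At 6 weeks the levels were 77.6, 96.2 and 104 CPM in WT and 307, 251 and 280.3 CPM in KO (log2 fold change 1.59, SE 0.18, adjusted p = 2.3e-06). At 10 weeks they were 101, 91.6 and 129.6 CPM in WT and 255, 370.4 and 257 CPM in KO (log2 fold change 1.45, SE 0.18, adjusted p = 4.9e-06). Every KO library of an age was above every WT library of that age.

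Itga5, the fibronectin receptor chain, differed most at 10 weeks. WT libraries of that age held 67.9, 77.3 and 64.0 CPM and KO libraries 326, 414 and 159 CPM (log2 fold change 2.10, SE 0.26, adjusted p = 2.5e-05). The third KO library was the lowest of its group and still above all WT libraries. At 6 weeks the values were 67.1, 79.1 and 90.5 CPM in WT and 85.6, 85.6 and 93.8 CPM in KO, which overlapped (log2 fold change 0.16, SE 0.26, adjusted p = 0.71). At 3 weeks they were 72.05, 86.6 and 87.4 CPM in WT and 114, 109 and 167 CPM in KO, apart but not called (log2 fold change 0.67, SE 0.26, adjusted p = 0.095).

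Itga11, a collagen receptor chain of fibroblasts, had the second largest positive difference of the 36 at 6 weeks. It stood at 2.69, 1.92 and 2.83 CPM in WT and 4.95, 8.39 and 5.65 CPM in KO, without overlap (log2 fold change 1.36, SE 0.29, adjusted p = 0.0014). The 8 fibroblast markers moved at the same age: 6 were called higher and 1 lower, and their summed level ran from 1030 to 1160 CPM in WT and from 1730 to 2390 CPM in KO. At 10 weeks, when that sum was 901 to 1020 CPM in WT and 1190 to 1320 CPM in KO, Itga11 was at 3.06, 3.25 and 2.15 CPM in WT and 3.09, 4.715 and 6.07 CPM in KO, with overlap (log2 fold change 0.72, SE 0.29, adjusted p = 0.07). Without the 3 atrial-rich libraries the 10-week adjusted p of Itga11 passed the threshold, at a log2 fold change of 0.954. At 3 weeks its log2 fold change was 0.11 (adjusted p = 0.85), and -0.038 without those libraries. The fibroblast sum at 3 weeks was 1730 to 1910 CPM in WT and 1960 to 2510 CPM in KO, with 2 markers called higher and 2 lower. The part of fibroblast content in the Itga11 values was not tested.

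Itgav pairs with several beta chains, Itgb5 among them, to bind vitronectin and other matrix proteins. In WT it held 12.9, 10.7 and 11.3 CPM at 6 weeks and in KO 19.0, 17.3 and 21.3 CPM (log2 fold change 0.72, SE 0.15, adjusted p = 0.00095). At 10 weeks it held 13.4, 13.1 and 11.8 CPM in WT and 22.8, 22.1 and 19.3 CPM in KO (log2 fold change 0.75, SE 0.15, adjusted p = 0.00059). No KO library overlapped with WT at either age, while at 3 weeks the groups overlapped (log2 fold change 0.15, adjusted p = 0.55). Itga7 rose at 6 weeks from 209, 259 and 267 CPM in WT to 357, 361 and 345 CPM in KO (log2 fold change 0.53, SE 0.13, adjusted p = 0.0051). At 3 weeks Itga7 was not called (log2 fold change 0.39, SE 0.13, adjusted p = 0.051), but without the 3 atrial-rich libraries it was (0.44, adjusted p = 0.027). At 10 weeks Itga7 was called higher with a slight overlap, 243, 263 and 293 CPM in WT and 292, 451.5 and 372 CPM in KO (log2 fold change 0.48, SE 0.13, adjusted p = 0.0086). That call was lost in 1 of 15 alternatives (without KO 10-week replicate 2), with an adjusted p of at most 0.069.

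Itga3, another laminin-binding chain, was called higher at 10 weeks, at 13.3, 17.6 and 15.5 CPM in WT and 27.7, 30.8 and 20.9 CPM in KO (log2 fold change 0.78, SE 0.17, adjusted p = 0.0013). Of the 6 epicardial and mesothelial markers, 5 were also called higher at 10 weeks, with sums of 8.43 to 15.4 CPM in WT and 28.0 to 72.8 CPM in KO. At 3 weeks, when Itga3 was not called, the sums were 11.6 to 19.5 CPM in WT and 22.5 to 43.8 CPM in KO. Of these markers 0 were called at 3 weeks, and 3 were higher at an unadjusted p under 0.05. At 6 weeks 0 were called, and the sums overlapped at 10.1 to 34.9 CPM in WT and 19.1 to 30.6 CPM in KO. Itga3 then held 16.0, 17.8 and 18.9 CPM in WT and 20.85, 21.9 and 22.3 CPM in KO, apart but not called. The part of epicardial content in the Itga3 values was not tested. Itga10, a collagen receptor chain best known from cartilage, was the 1 alpha chain called lower: 1.58, 2.24 and 2.03 CPM in WT and 1.19, 0.544 and 0.992 CPM in KO at 10 weeks (log2 fold change -1.10, SE 0.32, adjusted p = 0.013). That call was lost in 3 of 15 alternatives (with only the libraries compared, without WT 10-week replicate 2, without KO 10-week replicate 2), with an adjusted p of at most 0.093. Of the exon bases of Itga10, 33.5% lie under another gene of the same strand, Gm42957, so reads of these 2 genes cannot be told apart there. Over all libraries Gm42957 had 18 counts and Itga10 had 452. Itga1, a collagen and laminin receptor chain, Itga6, a laminin receptor chain, and Itga8, a chain that binds nephronectin and fibronectin, were called at no age. Their log2 fold changes ran from -0.62 to 0.46, both of them Itga8. Without the atrial-rich libraries Itga8 was called lower at 3 weeks (-0.92, adjusted p = 0.012) and at 10 weeks (-0.83, adjusted p = 0.019).

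**Figure D3:**
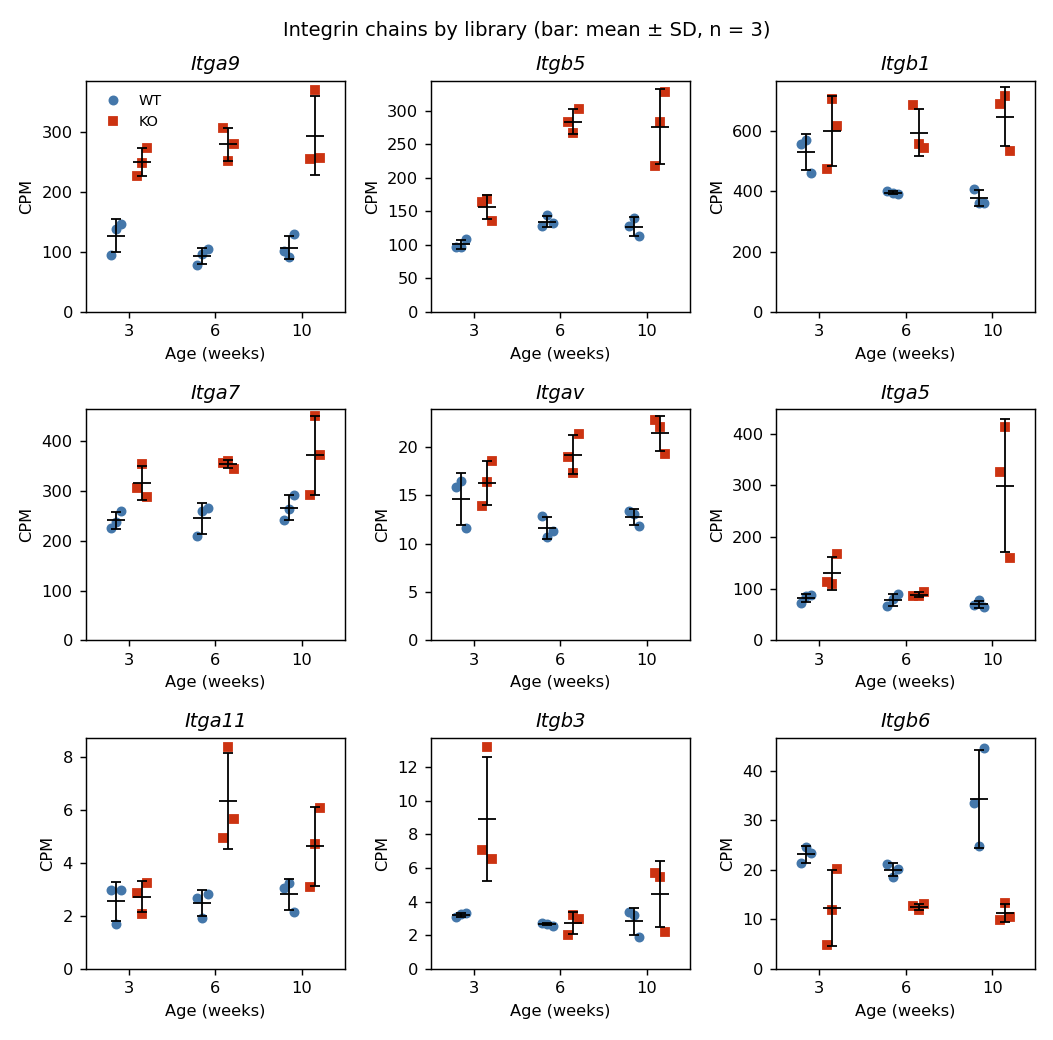
CPM (y axis, from 0) of 9 integrin chains by age in weeks; each symbol is 1 library (circles WT, squares KO), and bars are the mean ± SD of 3 libraries. Itga9 and Itgb5 are apart at every age, and Itga5 at 10 weeks spans 326, 414 and 159 CPM in KO. Itgb6 is lower in every KO library of each age, and was called lower at 10 weeks.

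Of the 5 beta chains, 2 were called higher at 3 weeks, 2 at 6 weeks, and 2 higher and 1 lower at 10 weeks. The shares over all genes at these ages were 8.65%, 11.0% and 14.6% higher, and 6.68%, 12.8% and 14.7% lower. Itgb5, a vitronectin receptor chain that pairs with Itgav, rose at every age. It stood at 96.7, 97.0 and 109 CPM in WT and 164, 169 and 135 CPM in KO at 3 weeks (log2 fold change 0.63, SE 0.13, adjusted p = 0.0019). At 6 weeks it stood at 128, 144 and 132 CPM in WT and 283, 267 and 303 CPM in KO (log2 fold change 1.075, SE 0.13, adjusted p = 2.9e-06). The lowest KO library of that age was far above the highest WT library. At 10 weeks the values were 128, 141 and 113 CPM in WT and 217, 283 and 329 CPM in KO (log2 fold change 1.12, SE 0.13, adjusted p = 1.3e-06).

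Itgb1, the partner of most alpha chains here, did not pass the test at 3 weeks, when its groups overlapped (log2 fold change 0.18, adjusted p = 0.43). At 6 weeks it held 402.5, 396 and 390 CPM in WT and 685, 557 and 542 CPM in KO (log2 fold change 0.59, SE 0.14, adjusted p = 0.0032). At 10 weeks it held 409, 361 and 363 CPM in WT and 691, 718 and 535 CPM in KO (log2 fold change 0.78, SE 0.14, adjusted p = 2e-04). KO was above WT in every library at both ages.

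Itgb3, the other widely known partner of Itgav and the beta chain of the platelet fibrinogen receptor, had the largest log2 fold change of the 36 at 3 weeks. Its level was 3.06, 3.26 and 3.29 CPM in WT and 7.09, 13.2 and 6.50 CPM in KO (log2 fold change 1.47, SE 0.31, adjusted p = 0.0027), with the second KO library highest. At 6 weeks WT and KO overlapped at 2.69, 2.65 and 2.57 CPM and 2.02, 3.21 and 2.94 CPM (log2 fold change 0.049, SE 0.33, adjusted p = 0.94). At 10 weeks they overlapped as well (log2 fold change 0.64, adjusted p = 0.15). Itgb6, an epithelial partner of Itgav that activates latent TGF-beta, was lower in KO at 10 weeks, at 33.5, 24.8 and 44.6 CPM in WT and 9.89, 13.2 and 10.6 CPM in KO (log2 fold change -1.61, SE 0.34, adjusted p = 0.0023). At 3 weeks it held 21.3, 24.6 and 23.4 CPM in WT and 4.90, 11.9 and 20.2 CPM in KO, where the third KO library, the atrial-rich one, was nearest to WT (log2 fold change -0.91, SE 0.33, adjusted p = 0.083). Without the 3 atrial-rich libraries Itgb6 was called lower at 3 weeks too (log2 fold change -1.49, adjusted p = 0.0036). At 6 weeks Itgb6 held 21.2, 18.6 and 20.2 CPM in WT and 12.6, 11.9 and 13.1 CPM in KO, apart but not called. Itgb8 was called at no age, with log2 fold changes of 0.89, 0.97 and 0.70 and standard errors of 0.43, 0.47 and 0.47.

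The 14 linkers connect integrin tails to actin or signal from them: 5 were called higher at 3 weeks, 3 higher and 2 lower at 6 weeks, and 5 higher and 1 lower at 10 weeks. All genes tested had 8.65%, 11.0% and 14.6% higher and 6.68%, 12.8% and 14.7% lower at these ages. The median log2 fold change of the linkers was 0.25, 0.023 and 0.22 in that order. Tln1 encodes talin, which binds the beta chain tail and switches integrins on. It stood at 149, 169.7 and 199.8 CPM in WT and 257, 262 and 261 CPM in KO at 3 weeks (log2 fold change 0.59, SE 0.13, adjusted p = 0.004). At 6 weeks it stood at 145, 186 and 200.2 CPM in WT and 248, 259.5 and 265 CPM in KO (log2 fold change 0.54, SE 0.13, adjusted p = 0.0043). At 10 weeks it stood at 215, 195 and 184 CPM in WT and 368, 454 and 319 CPM in KO (log2 fold change 0.94, SE 0.13, adjusted p = 1.5e-05). The genotypes were apart at each age. Tln2, the second talin gene, was called at no age, with log2 fold changes of 0.27, 0.33 and 0.29.

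Zyx, whose product zyxin is a LIM protein of actin attachment sites that responds to tension, was called higher at all 3 ages. At 3 weeks it stood at 52.7, 58.6 and 71.6 CPM in WT and 115, 97.75 and 109 CPM in KO (log2 fold change 0.82, SE 0.12, adjusted p = 8.1e-05). At 6 weeks the levels were 46.9, 57.8 and 55.5 CPM against 66.3, 68.15 and 80.6 CPM (log2 fold change 0.42, SE 0.12, adjusted p = 0.013). The 6-week call was lost in 3 of 15 alternatives (without WT 6-week replicate 1, without KO 6-week replicate 3, without the 3 atrial-rich libraries), with an adjusted p of at most 0.088. At 10 weeks the levels were 52.5, 61.9 and 61.1 CPM in WT and 106, 94.2 and 98.8 CPM in KO (log2 fold change 0.77, SE 0.12, adjusted p = 5.9e-05).

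Vcl encodes vinculin, which reinforces the bond between talin and actin. It was called higher at 3 weeks, at 87.3, 97.1 and 100.4 CPM in WT and 136, 149.6 and 153 CPM in KO (log2 fold change 0.62, SE 0.13, adjusted p = 0.0018). It was called higher again at 10 weeks, at 97.4, 81.6 and 80.5 CPM in WT and 156, 171 and 120.2 CPM in KO (log2 fold change 0.78, SE 0.13, adjusted p = 7.3e-05). At 6 weeks the groups overlapped, at 82.8, 101 and 111 CPM and 102, 110.4 and 103 CPM (log2 fold change 0.097, SE 0.13, adjusted p = 0.64). The strand setting of the counting was not given in the sources used here, and 39.9% of the exon bases of Vcl lie opposite exons of Ap3m1, so reads of these 2 genes cannot be told apart there.

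Ilk, the parvins (Parva and Parvb) and the PINCH proteins (Lims1 and Lims2) form the complex that links beta chain tails to actin around the pseudokinase Ilk. Parvb, the parvin rich in muscle, was called higher at 3 weeks, at 123, 142.5 and 156 CPM in WT and 196, 185 and 179.8 CPM in KO (log2 fold change 0.41, SE 0.10, adjusted p = 0.0081). That call was lost in 2 of 15 alternatives (with only the libraries compared, without WT 3-week replicate 1), with an adjusted p of at most 0.068. At 10 weeks Parvb was called higher again, at 113, 126 and 126 CPM in WT and 148, 173 and 177 CPM in KO (log2 fold change 0.45, SE 0.10, adjusted p = 0.002). Parva was called higher at 6 weeks (log2 fold change 0.27, SE 0.095, adjusted p = 0.042). The Parva call was lost in 9 of 15 alternatives, with an adjusted p of at most 0.21, among them the removal of any 1 of the 6 libraries of that age, the replicate number as a block, no filter on low counts and the removal of the 3 atrial-rich libraries.

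Lims2 was lower in KO at 6 weeks, at 89.5, 83.35 and 81.85 CPM in WT and 47.2, 68.05 and 60.4 CPM in KO (log2 fold change -0.54, SE 0.13, adjusted p = 0.0052). At 10 weeks the values were 89.5, 86.85 and 106.5 CPM in WT and 82.9, 61.1 and 67.8 CPM in KO, again without overlap (log2 fold change -0.42, SE 0.13, adjusted p = 0.022). The 10-week call was lost in 4 of 15 alternatives (with only the libraries compared, without WT 10-week replicate 3, without KO 10-week replicate 2, without KO 10-week replicate 3), with an adjusted p of at most 0.15. Lims1 and Ilk were called at no age, with log2 fold changes between -0.0255 and 0.23, both of them Ilk. For Ilk, 76.7% of the exon bases lie opposite Taf10, and for Lims2 11.1% lie opposite Gpr17, so the counts of both are uncertain to that extent.

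Itgb1bp2 (melusin, a muscle chaperone that binds the Itgb1 tail and is known for its part in the response to pressure overload) was lower in KO at 6 weeks. WT libraries held 217, 149.5 and 179 CPM and KO libraries 137.5, 114 and 108 CPM (log2 fold change -0.60, SE 0.12, adjusted p = 0.00092). At 3 and 10 weeks its log2 fold changes were -0.12 (adjusted p = 0.56) and -0.16 (adjusted p = 0.35). Fermt2, or kindlin, which activates integrins together with talin, was called higher at 10 weeks, at 218, 222 and 213 CPM in WT and 315, 319 and 241 CPM in KO (log2 fold change 0.42, SE 0.11, adjusted p = 0.0062). Pxn, the scaffold paxillin, was called higher at 3 weeks, at 77.15, 81.8 and 91.1 CPM in WT and 103, 101 and 118 CPM in KO (log2 fold change 0.37, SE 0.10, adjusted p = 0.018). The Pxn call was lost in 5 of 15 alternatives (with only the libraries compared, without WT 3-week replicate 1, without WT 3-week replicate 2, without KO 3-week replicate 3, without the 3 atrial-rich libraries), with an adjusted p of at most 0.1. Ptk2, which encodes focal adhesion kinase, and Tns1, the actin-binding tensin, were called at no age. Ptk2 stayed within -0.19 and -0.067 in log2 fold change, and Tns1 came nearest to the threshold at 3 weeks (log2 fold change 0.36, SE 0.12, adjusted p = 0.052). Tns1 was called higher at 3 weeks without the 3 atrial-rich libraries (0.42, adjusted p = 0.048).

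**Figure D4:**
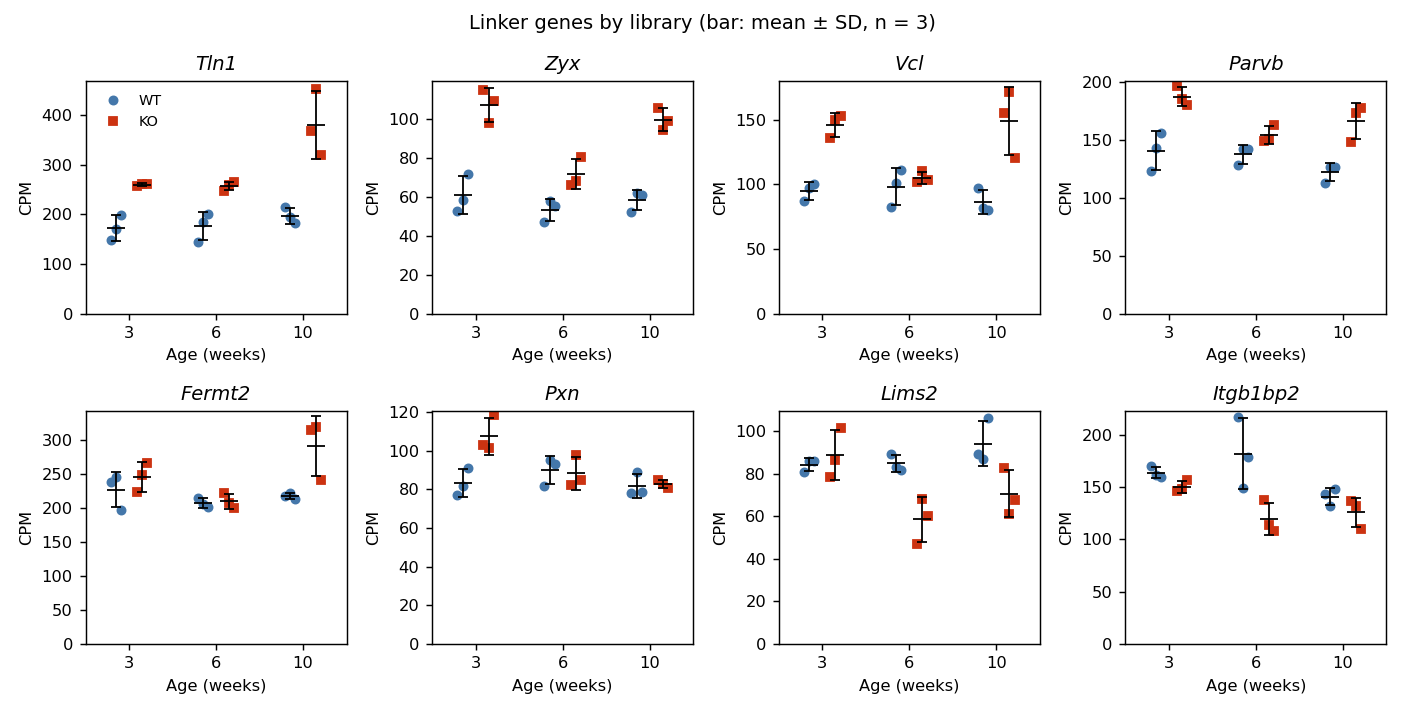
CPM (y axis, from 0) of 8 linker genes by age in weeks; each symbol is 1 library (circles WT, squares KO), and bars are the mean ± SD of 3 libraries. Tln1 and Zyx are apart at every age, Vcl is apart at 3 and 10 weeks, and Lims2 and Itgb1bp2 are lower in KO at 6 weeks.

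Of the 7 basement membrane genes, 2 were called higher at 3 weeks, 1 at 6 weeks and 1 at 10 weeks. The share of all genes called higher at these ages was 8.65%, 11.0% and 14.6%, and the share called lower 6.68%, 12.8% and 14.7%. The calls in the lower direction given above held no basement membrane gene, although Lamb1 reached an unadjusted p under 0.05 in that direction at 10 weeks. Hspg2 encodes perlecan, a large proteoglycan of basement membranes. At 3 weeks it stood at 564, 641 and 801.5 CPM in WT and 1109, 954 and 976 CPM in KO (log2 fold change 0.60, SE 0.13, adjusted p = 0.0039). Lamb1, a laminin beta chain, stood at 179.8, 178 and 184 CPM in WT and 251, 236 and 256 CPM in KO at 3 weeks (log2 fold change 0.46, SE 0.11, adjusted p = 0.0093). At 10 weeks Lamb1 was at 166, 150.2 and 127.5 CPM in WT and 126, 119.8 and 118 CPM in KO, every KO library below WT but not called (log2 fold change -0.29, SE 0.12, adjusted p = 0.066).

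Nid1, or nidogen, which joins laminin to type IV collagen networks, was called higher at 6 weeks with overlapping groups, 105.5, 136 and 124 CPM in WT and 134, 171 and 174 CPM in KO (log2 fold change 0.39, SE 0.12, adjusted p = 0.021). The Nid1 call was lost in 4 of 15 alternatives (without WT 6-week replicate 1, without KO 6-week replicate 2, without KO 6-week replicate 3, without the 3 atrial-rich libraries), with an adjusted p of at most 0.12. Lamc1, the gamma chain of most laminins, was called higher at 10 weeks, also with overlap, at 264, 228 and 217 CPM in WT and 319, 368 and 258 CPM in KO (log2 fold change 0.41, SE 0.13, adjusted p = 0.022). The Lamc1 call was lost in 3 of 15 alternatives (without WT 10-week replicate 2, without WT 10-week replicate 3, without KO 10-week replicate 2), with an adjusted p of at most 0.13. Lama4, the laminin alpha chain of vessel walls and heart muscle, Lama5 and Lamb2 were called at no age. Lamb2 came nearest, with 399, 395 and 488 CPM in WT and 604, 502 and 510.3 CPM in KO at 3 weeks (log2 fold change 0.33, SE 0.13, adjusted p = 0.079). Lama5 at 3 weeks held 155, 172 and 86.5 CPM in KO, the atrial-rich library lowest, and 77.0, 79.1 and 113 CPM in WT (log2 fold change 0.62, SE 0.26, adjusted p = 0.12). When the 3 atrial-rich libraries were left out, Lama5 was called higher at 3 weeks (0.86, adjusted p = 0.018). The 8 markers of mural cells, which make basement membrane, summed to medians of 1420 CPM in WT and 1040 CPM in KO at 3 weeks, 911 and 623 CPM at 6 weeks, and 1090 and 641 CPM at 10 weeks. Acta2, the most abundant of them in WT, was called lower in KO at each age. Without it the medians were 675 and 548 CPM, 529 and 550 CPM, and 486 and 497 CPM. Cspg4, another of the 8, was called higher at each age, and the median log2 fold change of the 8 was -0.41, -0.069 and -0.20.

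**Figure D5:**
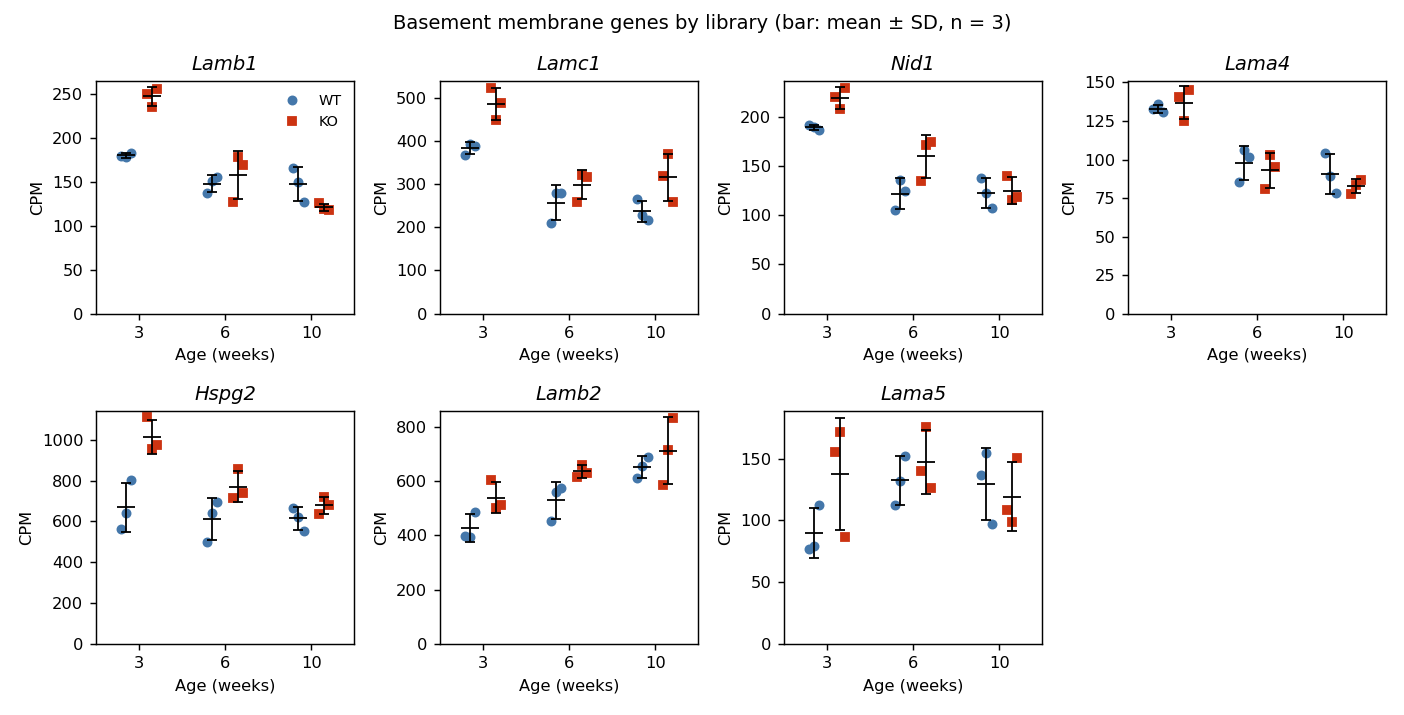
CPM (y axis, from 0) of the 7 basement membrane genes by age in weeks; each symbol is 1 library (circles WT, squares KO), and bars are the mean ± SD of 3 libraries. Lamb1 is higher in KO at 3 weeks and lower in every KO library at 10 weeks, and Lama4, Lamc1 and Nid1 are higher at 3 weeks than later in WT.

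Whether the genotype difference itself changed between ages was tested as a difference of log2 fold changes. From 6 to 10 weeks the log2 fold change of KO against WT rose for 2 of 36 genes and fell for 0, against 3.12% and 2.63% of all genes. The 0 compares with 4 lower at an unadjusted p under 0.05, and limma voom and DESeq2 called 0 as well. Itga5 had the largest change, 1.94 (SE 0.36, adjusted p = 0.0061), as its KO levels went from 85.6, 85.6 and 93.8 CPM to 326, 414 and 159 CPM. Vcl changed by 0.69 (SE 0.18, adjusted p = 0.026). The Vcl call was lost in 7 of 21 alternatives (without WT 6-week replicate 3, without WT 10-week replicate 2, without WT 10-week replicate 3, without KO 6-week replicate 1, without KO 6-week replicate 3, without KO 10-week replicate 2, without the 3 atrial-rich libraries), with an adjusted p of at most 0.083.

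From 3 to 10 weeks, which uses the same 10-week libraries, 1 gene was called in each direction, against 2.82% higher and 2.94% lower of all genes. The log2 fold change of Itga5 rose by 1.44 (SE 0.36, adjusted p = 0.03). This call was lost in 9 of 21 alternatives (with only the libraries compared, without WT 3-week replicate 2, without WT 3-week replicate 3, without WT 10-week replicate 1, without WT 10-week replicate 3, without KO 3-week replicate 1, without KO 3-week replicate 2, without KO 10-week replicate 1, without KO 10-week replicate 2), with an adjusted p of at most 0.085. For Lamb1 the log2 fold change went from 0.46 at 3 weeks to -0.29 at 10 weeks, a change of -0.74 (SE 0.16, adjusted p = 0.0086). It held in all 21 alternatives.

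From 3 to 6 weeks no gene of the 36 was called in either direction by edgeR, against 0.494% higher and 1.10% lower of all genes. At an unadjusted p under 0.05 there were 6 higher and 8 lower, and limma voom and DESeq2 each called 0 in both directions. Lims2 had the smallest p (log2 fold change -0.61, SE 0.19, adjusted p = 0.1). Its levels at 3 weeks were 81.1, 86.0 and 86.0 CPM in WT and 78.4, 86.7 and 101 CPM in KO. For Itgb3, called higher at 3 weeks and not later, the change from 3 to 6 weeks was -1.42 (SE 0.46, adjusted p = 0.12), so a difference between these ages was not shown. Without the 3 atrial-rich libraries Itga8 was called higher for the change from 3 to 6 weeks (1.36, adjusted p = 0.049) and lower for that from 6 to 10 weeks (-1.27, adjusted p = 0.036), and Itgb5 higher for that from 3 to 10 weeks (0.575, adjusted p = 0.049). For Itga11 the change from 3 to 6 weeks was 1.25 (SE 0.42, adjusted p = 0.13).

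Within WT, 4 of 36 genes were lower at 6 than at 3 weeks and 0 higher, against 2.24% lower and 2.94% higher of all genes. At an unadjusted p under 0.05, 3 of the 36 were higher, limma voom called 0 higher and DESeq2 called 1. Itga1 went from 32.1, 38.55 and 26.8 CPM to 19.4, 23.4 and 19.99 CPM (log2 fold change -0.64, SE 0.17, adjusted p = 0.031), a call lost in 4 of 15 alternatives (without WT 3-week replicate 1, without WT 3-week replicate 2, without WT 6-week replicate 1, without WT 6-week replicate 3), with an adjusted p of at most 0.2. Nid1 went from 192, 189.7 and 186.5 CPM to 105.5, 136 and 124 CPM, without overlap (log2 fold change -0.63, SE 0.12, adjusted p = 0.0044). Lamc1 (-0.58) and Lama4 (-0.45) were also lower in log2 fold change, so 3 of the 4 were basement membrane genes. The Lama4 call was lost in 4 of 15 alternatives (without WT 3-week replicate 1, without WT 3-week replicate 2, without WT 6-week replicate 1, without WT 6-week replicate 3), with an adjusted p of at most 0.15. The Lamc1 call was lost in 2 of 15 alternatives (without WT 3-week replicate 2, without WT 6-week replicate 1), with an adjusted p of at most 0.1. Leaving out WT 3-week replicate 2 or WT 6-week replicate 1 left 1 call, and leaving out WT 3-week replicate 3 gave 7. Itga6 was also called lower (adjusted p = 0.046) and Itgb5 higher (adjusted p = 0.025) without the 3 atrial-rich libraries. From 6 to 10 weeks in WT no gene was called in either direction, against 3.64% higher and 5.12% lower of all genes. At an unadjusted p under 0.05 there were 4 higher and 1 lower, and limma voom and DESeq2 called 0. Itgb1bp2 had the smallest p, with 217, 149.5 and 179 CPM at 6 and 143.5, 132 and 148 CPM at 10 weeks (log2 fold change -0.37, SE 0.12, adjusted p = 0.066).

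Within KO the 6-week libraries differed from the 3-week libraries in 12 of 36 genes, 2 higher and 10 lower, against 5.34% higher and 6.25% lower of all genes. Itgb5 (log2 fold change 0.86, SE 0.13, adjusted p = 0.00015) and Itga11 (log2 fold change 1.22, SE 0.29, adjusted p = 0.0075) were the 2 higher. Itga11 went from 2.845, 2.07 and 3.23 CPM to 4.95, 8.39 and 5.65 CPM, and its call was lost in 1 of 15 alternatives (without KO 6-week replicate 2), with an adjusted p of at most 0.063. The 10 lower were Itga1, Itgb3, Vcl, Lims1, Lims2, Zyx, Nid1, Lama4, Lamb1 and Lamc1. Itgb3 fell the most, from 7.09, 13.2 and 6.50 CPM to 2.02, 3.21 and 2.94 CPM (log2 fold change -1.70, SE 0.32, adjusted p = 0.0013). Itga1 fell from 33.9, 38.3 and 33.9 CPM to 19.5, 22.4 and 19.9 CPM (log2 fold change -0.78, SE 0.17, adjusted p = 0.0041). The calls of Vcl, Lims1 and Nid1 did not survive the removal of KO 3-week replicate 3, those of Vcl and Lims1 also not that of the 3 atrial-rich libraries, and over all alternatives their adjusted p reached 0.14, 0.18 and 0.12.

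From 6 to 10 weeks in KO 6 of 36 genes were higher and 2 lower, against 6.52% and 6.14% of all genes. Itga5 rose the most (log2 fold change 1.76, SE 0.26, adjusted p = 6e-04), followed by Tln1 (log2 fold change 0.56, SE 0.13, adjusted p = 0.0076). Vcl, Fermt2, Zyx and Tns1, all linkers, were the other 4, at log2 fold changes of 0.50, 0.47, 0.47 and 0.44. The Itga5 call held in all 15 alternatives, and the other 5 were each lost in 1 to 3 of them, Tln1 when KO 10-week replicate 2 was left out (adjusted p = 0.051). Without the 3 atrial-rich libraries the calls of Vcl (adjusted p = 0.075), Fermt2 (adjusted p = 0.076) and Tns1 (adjusted p = 0.068) were lost. Itga8 fell from 4.61, 5.83 and 5.48 CPM to 3.44, 2.24 and 2.16 CPM (log2 fold change -1.03, SE 0.26, adjusted p = 0.011), a call lost in 2 of 15 alternatives (without KO 6-week replicate 2, without KO 10-week replicate 2), with an adjusted p of at most 0.068. Lamb1 fell as well (log2 fold change -0.39, SE 0.12, adjusted p = 0.03). Its call was lost in 8 of 15 alternatives, with an adjusted p of at most 0.18, among them each library left out except KO 6-week replicate 1.

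The other genes of the pathway were read from lists written with earlier results of these data known. Beside their counts stand the shares over all genes at 3, 6 and 10 weeks: 8.65%, 11.0% and 14.6% higher, and 6.68%, 12.8% and 14.7% lower. Of 10 further integrin chains tested, mostly leukocyte and platelet chains, edgeR called 0 at 3 and 6 weeks (2 and 1 were higher at an unadjusted p under 0.05) and 2 were higher at 10 weeks. These were Itgax, a myeloid chain (log2 fold change 2.63, SE 0.55, adjusted p = 0.001), and Itga2b, the platelet alpha chain (log2 fold change 0.98, SE 0.335, adjusted p = 0.032), both at low levels. The Itga2b call was lost with limma voom and when any of 4 libraries (WT 10-week replicates 1 and 3, KO 10-week replicates 1 and 3) or the 3 atrial-rich libraries were left out, with an adjusted p of at most 0.099. Of 31 further adhesion adaptors tested, 14 were higher and 0 lower by edgeR at 3 weeks (1 lower at an unadjusted p under 0.05), 10 and 2 at 6 weeks, and 18 and 3 at 10 weeks. Their median log2 fold change was 0.40, 0.17 and 0.47. Flnc, the muscle filamin, rose the most at 3 weeks (log2 fold change 1.76, SE 0.45, adjusted p = 0.019) and at 10 weeks (log2 fold change 3.04, SE 0.47, adjusted p = 0.00032), when it averaged 5300 CPM in KO against 642 CPM in WT. The 10-week libraries of Flnc were uneven in KO, at 7120, 6941 and 1828 CPM, against 644, 708 and 573 CPM in WT. The 3-week Flnc call was lost without WT 3-week replicate 1 or 2, KO 3-week replicate 3 or the 3 atrial-rich libraries, with an adjusted p of at most 0.092. Ptk2b, a kinase related to Ptk2, rose at 3 weeks (log2 fold change 1.44, SE 0.35, adjusted p = 0.0089), a call lost without WT 3-week replicate 1 (adjusted p = 0.055). Sorbs2, a vinculin-binding adaptor of the Z-disc, rose at 6 weeks (log2 fold change 1.15, SE 0.215, adjusted p = 0.00076) and at 10 weeks (log2 fold change 1.75, SE 0.22, adjusted p = 1.3e-05). Src, a kinase acting with Ptk2, rose at 6 weeks (log2 fold change 0.80, SE 0.18, adjusted p = 0.0019). Itgb3bp was lower at 6 weeks (log2 fold change -1.22, SE 0.24, adjusted p = 6e-04) and at 10 weeks (log2 fold change -0.93, SE 0.24, adjusted p = 0.005). Itgb1bp1 was lower at 6 weeks (log2 fold change -0.41, SE 0.12, adjusted p = 0.016), a call lost without WT 6-week replicate 1, KO 6-week replicate 2 or 3, or the 3 atrial-rich libraries (adjusted p of at most 0.11). Trip6, a relative of zyxin, was lower at 10 weeks (log2 fold change -0.59, SE 0.13, adjusted p = 0.002).

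Of 20 further basement membrane and matrix genes tested, 13 were higher and 0 lower by edgeR at 3 weeks (1 lower at an unadjusted p under 0.05), 12 and 2 at 6 weeks, and 12 and 2 at 10 weeks. All genes again had 8.65%, 11.0% and 14.6% higher and 6.68%, 12.8% and 14.7% lower at these ages. The median log2 fold change of the 20 was 0.58, 0.93 and 0.72. Thbs1, or thrombospondin, a matricellular protein, rose at 3 weeks (log2 fold change 2.73, SE 0.63, adjusted p = 0.012) and at 10 weeks (log2 fold change 2.79, SE 0.64, adjusted p = 0.0054). The 3-week Thbs1 call was lost without WT 3-week replicate 1 or 2 and with only the libraries compared (adjusted p of at most 0.1), and its 10-week value was 2.18 without KO 10-week replicate 1 (adjusted p = 0.021). Tnc, the tenascin bound by integrins holding Itga9, rose at 3 weeks (log2 fold change 1.95, SE 0.44, adjusted p = 0.0065). Its KO libraries held 12.5, 35.35 and 8.604 CPM, and without the highest, KO 3-week replicate 2, the log2 fold change was 1.13 (adjusted p = 0.024). With only the libraries compared the Tnc call was lost (adjusted p = 0.073). Lamc3, a laminin gamma chain, rose the most at 6 weeks, where it averaged 10.9 CPM in KO against 0.674 CPM in WT (log2 fold change 3.97, SE 0.31, adjusted p = 6.8e-09). Postn, or periostin, a product of activated fibroblasts, rose at 6 weeks (log2 fold change 2.05, SE 0.40, adjusted p = 0.0019). Lamb3, a laminin beta chain, was lower at 6 weeks (log2 fold change -0.97, SE 0.15, adjusted p = 4.9e-05) and at 10 weeks (log2 fold change -1.27, SE 0.15, adjusted p = 2.1e-06). Vtn, or vitronectin, a ligand of integrins holding Itgb5, was lower at 6 weeks (log2 fold change -1.17, SE 0.24, adjusted p = 0.0014) and at 10 weeks (log2 fold change -1.44, SE 0.24, adjusted p = 0.00021).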

How the data were processed

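Total RNA of 18 ventricle libraries was prepared with the NEBNext Ultra II kit, per the labels' protocols. Per the submitters' processing notes, the tools were STAR 2.5.2b, Trimmomatic 0.36 and featureCounts (with Subread 1.5.2) and the build was GRCm38; neither strand setting nor annotation release is given in the sources used here. Then the authors deposited raw counts per Ensembl gene, with the exon length of each gene. Symbols were taken from GENCODE M21, which held 49056 of the 49315 identifiers. Other values were computed here.

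Counts were fitted with edgeR 4.0.16 in R 4.3.3: scaling by the trimmed mean of M-values (TMM), filterByExpr (minimum count 10), a robust quasi-likelihood fit of 6 group means over all 18 libraries, and 10 contrasts. Benjamini-Hochberg adjustment ran over all 15778 genes tested, with calls at an adjusted p under 0.05. CPM are counts scaled to the TMM-adjusted library size, and the SE of a log2 fold change is its size over the square root of F. Total counts of 14980968 to 23001047 per library set the counting precision. All members are named; values in every library were given for those the contrast rule picked, the largest called in each direction, and for others beside them; 1 gene of the further lists is not reported here. Replicates differed beyond counting noise (chi-square per degree of freedom from 7.56 to 70.5), and 0 pairs of libraries were identical.

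Alternatives were limma 3.58.1 (voom), DESeq2 1.42.0, DESeq2 size factors, other filters, no mitochondrial genes, the replicate number as a block, only the libraries of a contrast, each library left out and, chosen after seeing the data, the 3 atrial-rich libraries left out. The fit was tested on simulated data, but no result of that test is given here and none of the calls rests on it. The members and lists were chosen with earlier results of these data known. Promoters came from RefSeq (GRCm38.p6). Windows were considered for the 7 genes called higher at all ages or differing between ages. The 3 shown had at least 200 of 250 bases outside the deposited gene model.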

Additional observations from a re-analysis of the deposited data

Results flagged for a closer look

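The KO difference itself differed between ages in 4 cases, by edgeR's test of the difference of log2 fold changes. For Itga5 the difference was 1.94 larger at 10 than at 6 weeks (adjusted p = 0.0061) and 1.44 larger at 10 than at 3 weeks (adjusted p = 0.03). For Vcl it was 0.69 larger at 10 than at 6 weeks (adjusted p = 0.026). For Lamb1 the change from 3 to 10 weeks was -0.74 (adjusted p = 0.0086). The Itga5 call from 3 to 10 weeks was lost in 9 of 21 alternatives and the Vcl call in 7 of 21. The Itga5 call from 6 to 10 weeks and the Lamb1 call held in all 21. All 3 KO libraries of Itga5 at 10 weeks (326, 414 and 159 CPM) and of Vcl at 10 weeks (156, 171 and 120.2 CPM) were above WT, and all 3 KO libraries of Lamb1 were above WT at 3 weeks and below it at 10 weeks.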

How the results depend on the processing

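Calls that an alternative ended are given beside their values, and no member called in a comparison changed sign there in any alternative. The counts in this section are of members only. Shares of all genes called in each alternative are not given, so the counts show how member calls moved and are not set against a background. With no filter on low counts 1 member was lower at 3 weeks, and the KO difference had 2 members higher and 2 lower from 3 to 6 weeks, 1 lower from 6 to 10 weeks, and 2 higher and 3 lower from 3 to 10 weeks. The same setting gave 2 higher and 8 lower in WT from 3 to 6 weeks and 1 higher in WT from 6 to 10 weeks, and the cause was not tested. With only the libraries of the contrast 1 member was lower at 10 weeks, the KO difference had 1 lower from 6 to 10 weeks and 0 higher from 3 to 10 weeks, WT had 2 higher and 8 lower from 3 to 6 weeks and 1 higher and 1 lower from 6 to 10 weeks, and KO had 1 lower from 6 to 10 weeks. DESeq2 gave 2 higher for the KO difference from 3 to 10 weeks and 1 higher in WT from 3 to 6 weeks, its size factors in the edgeR fit gave 1 lower in KO from 6 to 10 weeks, and limma voom gave 1 lower at 3 weeks. Without the 3 atrial-rich libraries 2 members were lower at 3 weeks, the KO difference had 1 higher from 3 to 6 weeks, 1 higher and 1 lower from 6 to 10 weeks and 2 higher from 3 to 10 weeks, WT had 1 higher from 3 to 6 weeks, and KO had 3 higher and 1 lower from 6 to 10 weeks.

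Leaving out 1 library at a time gave 8 to 14 higher and 0 to 2 lower at 3 weeks, 7 to 10 higher at 6 weeks, and 11 to 14 higher and 1 to 4 lower at 10 weeks. The 2 lower at 3 weeks arose without KO 3-week replicate 3 and the 1 lower at 10 weeks without KO 10-week replicate 2. For the KO difference the ranges were 0 to 1 higher from 3 to 6 weeks (1 without KO 3-week replicate 3), 1 to 4 higher and 0 to 1 lower from 6 to 10 weeks, and 0 to 3 higher and 1 to 2 lower from 3 to 10 weeks. The 4 and the 3 arose without KO 10-week replicate 3. In WT they were 0 to 1 higher and 1 to 7 lower from 3 to 6 weeks, and 0 to 1 lower from 6 to 10 weeks. In KO they were 1 to 2 higher from 3 to 6 weeks, and 0 to 3 lower from 6 to 10 weeks, with 0 without KO 6-week replicate 2 or KO 10-week replicate 2.

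With the replicate number as a block 11 members were higher and 0 lower at 3 weeks, 9 and 2 at 6 weeks, and 13 and 3 at 10 weeks. The labels do not say that a number marks a shared litter or day: over 45 pairs of same-numbered libraries the correlation of deviations ran from -0.22 to 0.11, and 4 of 18 libraries correlated best with their own number. Depth limits Itgb8, Itga10, Itgb3 and Itga11 most.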
